A study of Mus musculus with 4 samples.

Results

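Protocadherins, the largest subgroup of the cadherin adhesion proteins in vertebrates, were measured by 37 of the 35556 probe sets on Mouse Gene 1.0 ST arrays of adult mouse brain. Members were all probe sets whose every gene symbol in the platform annotation begins with Pcdh. They comprised 23 clustered and 14 non-clustered probe sets. The clustered group held 22 beta genes, Pcdhb1 to Pcdhb22, each with a probe set of its own, and 1 probe set that names 14 alpha isoforms together, which cannot be separated here. The non-clustered group named 12 genes, of which Pcdh9 and Pcdh15 had 2 probe sets each. There were 0 probe sets named for a gamma gene, so the gamma genes were not analysed here.

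The groups were 2 ethanol arrays and 2 saline arrays, each carrying whole-brain RNA pooled from 3 male C57BL/6J mice of different litters. The ethanol mice had been injected under the skin as pups with 2 doses of ethanol at 2.5 g/kg, 2 hours apart, on postnatal days 4 and 7, a window that stands for the third trimester of human brain development. The saline mice received saline at the same times and were littermates of the ethanol mice. According to the labels, pups were weaned on day 25 and brains taken on day 60, whereas the methods give other days. The arrays are called ethanol 2, ethanol 4, control 1 and control 3 after their titles, and the controls are the saline mice. The treatment entry of the labels contradicts title and source name for ethanol 4 and control 1, and groups here follow title and source name. As each array is a pool, p-values measure the spread between pools of whole brain. Fewer cells of a type and less RNA per cell cannot be told apart in such tissue.

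Clustered protocadherins lie in tandem arrays of alpha, beta and gamma genes. Of most of these genes, each neuron expresses a small, largely random subset, chosen through DNA methylation of their promoters and looping by CTCF and cohesin. The proteins bind their own kind across cells so that neurites of the same neuron avoid each other. Beta genes have a single coding exon each, whereas alpha and gamma genes splice a variable exon to shared constant exons. Non-clustered protocadherins are scattered in the genome and comprise the delta 1 genes (Pcdh1, Pcdh7, Pcdh9, Pcdh11x), whose tails bind protein phosphatase 1, the delta 2 genes (Pcdh8, Pcdh10, Pcdh17, Pcdh18, Pcdh19), several of whose tails recruit the actin regulator WAVE, and further genes such as Pcdh12, Pcdh15 and Pcdh20.

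The promoters of 3 non-clustered genes are shown because the genes differ in outcome, as given further on. Pcdh7 and the brighter Pcdh15 probe set had lower signal on both ethanol arrays, and the dimmer Pcdh15 probe set and Pcdh10 did not. Each promoter is the 250 bases before a RefSeq transcript start in GRCm38.p6, with the dinucleotide CG, the target of DNA methylation, in capitals. The CG pair reads the same on both strands.
Pcdh7: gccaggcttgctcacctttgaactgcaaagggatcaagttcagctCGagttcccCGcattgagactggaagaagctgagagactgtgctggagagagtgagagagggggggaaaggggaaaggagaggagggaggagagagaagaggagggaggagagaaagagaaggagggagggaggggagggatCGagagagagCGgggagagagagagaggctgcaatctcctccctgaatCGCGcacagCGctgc
Pcdh15: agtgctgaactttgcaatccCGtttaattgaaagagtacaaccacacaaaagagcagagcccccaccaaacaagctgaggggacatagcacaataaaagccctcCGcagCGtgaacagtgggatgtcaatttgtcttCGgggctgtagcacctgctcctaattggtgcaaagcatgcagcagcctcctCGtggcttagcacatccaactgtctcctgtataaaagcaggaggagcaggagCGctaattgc
Pcdh10: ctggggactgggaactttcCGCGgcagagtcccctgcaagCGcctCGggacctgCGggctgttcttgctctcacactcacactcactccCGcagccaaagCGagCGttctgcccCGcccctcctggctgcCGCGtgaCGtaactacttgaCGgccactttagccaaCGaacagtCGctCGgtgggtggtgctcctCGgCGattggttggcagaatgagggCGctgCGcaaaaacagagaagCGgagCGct
These stretches lie at chr5:57717831-57718080, chr10:73821617-73821866 and chr3:45378148-45378397, all on the plus strand. They hold 7, 6 and 22 CG pairs for Pcdh7, Pcdh15 and Pcdh10. Over 32851 promoter stretches of the same length in the RefSeq table the median was 6.0 CG pairs, with Pcdh15, Pcdh7 and Pcdh10 at percentiles 49.6, 53.7 and 85.2. Promoters of 9 of the 12 non-clustered genes were in the table. Those of Pcdh1, Pcdh11x and Pcdh12 were not, although Pcdh1 had a lower signal past the limits described below. Among the other genes in the table, Pcdh18 held 23 CG pairs, Pcdh17 held 21, Pcdh9 held 18 at both of its starts, Pcdh19 held 16, Pcdh8 held 11 and Pcdh20 held 3. Of these genes, 0 had a probe set past the limits described below, where 20.1% of all probe sets were past them. Pcdh18 and both Pcdh9 probe sets, rich in CG pairs, also had lower signal on both ethanol arrays, as 52.7% of all probe sets did. Pcdh8, Pcdh17, Pcdh19 and Pcdh20 did not. A relation between CG pairs and the differences was not tested. Whether these starts are the ones used in adult brain, and whether the CG pairs were methylated, was not measured.

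The deposited values are log2 signals that the authors normalized, yet the medians of the ethanol arrays (6.33 on ethanol 2 and 6.38 on ethanol 4) were below those of the saline arrays (6.61 on control 1 and 6.51 on control 3). Over all probe sets the median difference (ethanol minus saline) was -0.15, and 80.2% of probe sets were below 0. Differences are therefore given as deposited and again once the 4 arrays had been quantile normalized anew, when the median of all differences was -0.0042. A probe set is called past the study's limits where its fold difference is at least 1.2 and its unadjusted limma p is below 0.05. Markers of neurons averaged log2 signals of 11.80 and 11.77 on the ethanol arrays and 11.95 and 11.82 on the saline arrays, and 0 of 6 were past the limits. Oligodendrocyte markers (5 of 6 measured) averaged 11.21 and 11.23 on the ethanol arrays and 11.47 and 11.37 on the saline arrays, with 1 of 5, Cnp, past the limits. Pituitary markers averaged 5.61 on ethanol 2 and 7.92 on ethanol 4, against 7.96 on control 1 and 7.90 on control 3. Of 15 marker lists, 7 had lower means on both ethanol arrays as deposited. Their part in the protocadherin results was not tested.

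Non-clustered protocadherins had a higher median signal than clustered ones, which did not hold for every class of them. The median over probe sets of the mean log2 signal was 7.04 for the clustered group and 7.76 for the non-clustered group, against 6.81 for all 21789 probe sets that name 1 gene. Such levels also depend on the probes, so they describe signals and do not rank transcripts. The beta genes ran from 4.73 for Pcdhb1 to 8.45 for Pcdhb15 with a median of 7.11, and the alpha probe set was at percentile 46.2 of the probe sets that name 1 gene. The delta 1 genes ran from 7.07 for Pcdh1 to the 2 Pcdh9 probe sets (median 9.82), and the delta 2 genes from 6.04 for Pcdh8 to 10.73 for Pcdh10 (median 8.07). The 4 other non-clustered probe sets had a median of 6.41, below that of the clustered group. On the same scale of percentiles Pcdh9 stood at 95.9 and 95.4, Pcdh10 at 94.4 and Pcdh7 at 87.2.

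As a background of genes that brain should not express, 205 probe sets of vomeronasal and bitter taste receptors had a median of 5.40 and a 95th percentile of 6.20. Above that percentile lay 16 of the 22 beta genes, the alpha probe set and 11 of the 14 non-clustered probe sets. The beta genes at or below it were Pcdhb1, Pcdhb5, Pcdhb11, Pcdhb12, Pcdhb13 and Pcdhb21. The non-clustered ones were Pcdh8, a synaptic protocadherin induced by activity, Pcdh12, an endothelial protein, and the dimmer probe set of Pcdh15. Pcdhb11, Pcdhb12 and Pcdhb13, which are among the beta genes with calls described below, thus had signals no higher than such receptors can give. Pcdhb7, also called, had a mean of 6.28, just above that percentile and below the brightest receptor at 6.73. The receptors themselves had a median difference of -0.22 as deposited, with 43 of 205 past the limits and lower, and of -0.05 after quantile normalization, with 10 of 205 lower.

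**Figure D1:**
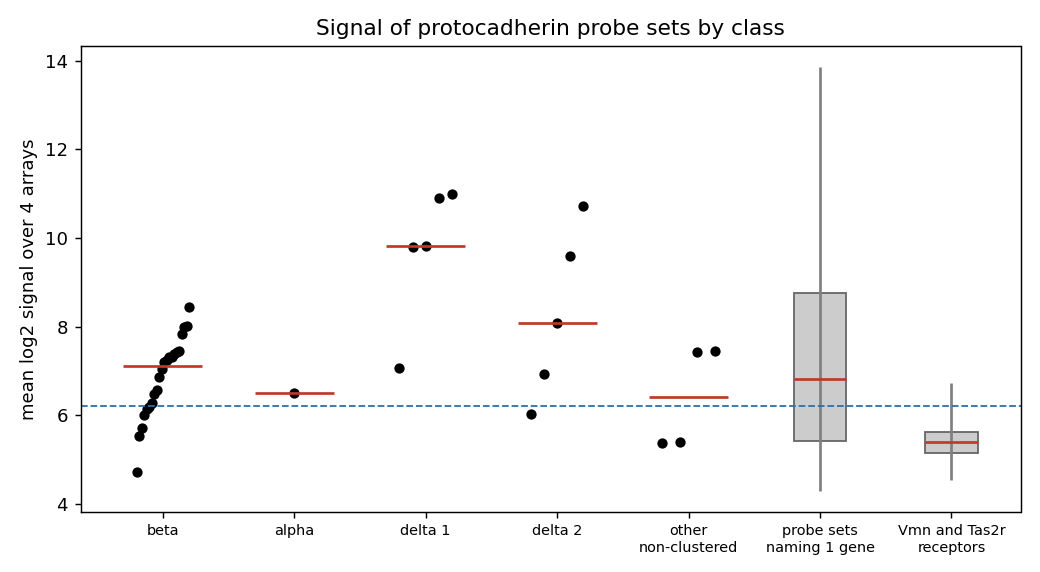
Mean log2 signal over the 4 arrays of each protocadherin probe set (points) by class, with red lines at class medians, beside the range, quartiles and median of all probe sets that name 1 gene and of vomeronasal (Vmn) and taste (Tas2r) receptors. The dashed line marks the receptors' 95th percentile, 6.20, and all delta 1 points lie above it.

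Calls were made for 9 of the 37 protocadherin probe sets, all of them lower on the ethanol arrays, and 28 had none. Over all probe sets 17.9% had lower signals past the limits and 2.23% higher ones. The 9 were 6 of 23 clustered probe sets (26.1%) and 3 of 14 non-clustered ones (21.4%), shares that rest on few probe sets and stand near the background (20.1% of all probe sets in either direction). After quantile normalization 2 clustered and 2 non-clustered probe sets kept their call, and 0 others gained one, against 5.87% of all probe sets past them and lower and 5.71% past them and higher. These 4 were Pcdhb7, Pcdhb18, Pcdh1 and Pcdh7. Of the 21789 probe sets that name 1 gene, 3490 had lower signals past the limits as deposited and 747 after normalization. In limma, 0 members passed the adjusted limit of 0.05 in either form of the data, as 0.00281% of all probe sets did as deposited and 0.00562% after normalization. The unadjusted limit was passed by 10 members as deposited (22.2% of all probe sets) and by 5 after normalization (13.6%). The lowest adjusted p was 0.162 as deposited and 0.255 after normalization. Without ethanol 2, the array with low pituitary markers, 3 clustered and 2 non-clustered probe sets had lower signals past the limits, among them Pcdhb7, Pcdhb18, Pcdh1 and Pcdh7. Grouped instead by the contradictory treatment entry, which mixes arrays titled ethanol and control within each group, 0 protocadherin probe sets were past the limits. The share of all probe sets past the limits is not given for these last settings.

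Among the delta 1 genes, signals were lower on both ethanol arrays at all 5 probe sets, as at 52.7% of all probe sets, and Pcdh1 and Pcdh7 had lower signals past the limits, as 17.9% of all probe sets did. Pcdh7, whose tail binds protein phosphatase 1, had log2 signals of 9.57 on ethanol 2 and 9.58 on ethanol 4, against 10.09 on control 1 and 9.93 on control 3. The ethanol arrays were nearly equal to each other and both lay below the saline arrays. The difference was -0.44 (standard error 0.10, 1.36-fold lower, adjusted p = 0.171), and -0.33 after quantile normalization. Pcdh1, an adhesion protein also known as an entry receptor of New World hantaviruses, had 6.86 and 6.82 on ethanol 2 and ethanol 4, against 7.35 and 7.26 on control 1 and control 3. Its difference of -0.46 (standard error 0.09, 1.38-fold lower, adjusted p = 0.168) was larger than the gap of 0.09 between the saline arrays. After normalization it was -0.26, a difference at the 1.2-fold limit itself.

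The remaining delta 1 probe sets differed by less. For Pcdh9, the brighter probe set had 10.93 and 10.90 on the ethanol arrays against 11.12 and 11.07 on the saline arrays, a difference of -0.18. Its dimmer probe set had 10.85 and 10.84 on the ethanol arrays against 10.88 and 11.03 on the saline arrays, a difference of -0.12. Both Pcdh9 probe sets thus pointed the same way and neither was past the limits. X-linked Pcdh11x had 9.61 and 9.80 on the ethanol arrays and 9.87 and 9.99 on the saline arrays, at -0.23 (adjusted p = 0.286). After quantile normalization the 5 delta 1 probe sets ran from -0.33 to -0.06, with a median of -0.13, where all probe sets had a median of -0.0042.

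The delta 2 genes had a median difference of -0.06 as deposited, and 0 of 5 were past the limits, beside 20.1% of all probe sets. Pcdh10, which takes part in axon growth and in the removal of synapses, had 10.66 on ethanol 2 and 10.84 on ethanol 4, against 10.73 on control 1 and 10.70 on control 3. The ethanol arrays lay on either side of the saline arrays, and the difference was 0.03 (standard error 0.10). Pcdh17, an adhesion protein of basal ganglia synapses, had 9.48 and 9.70 on the ethanol arrays against 9.72 and 9.52 on the saline arrays, and the groups overlapped. Pcdh19, in which mutations cause epilepsy in humans, differed by -0.06, with 8.01 and 8.07 on the ethanol arrays and 8.07 and 8.13 on the saline arrays. Pcdh8 had 5.94 and 6.00 on the ethanol arrays against 6.29 on control 1 and 5.91 on control 3, so that the saline arrays differed from each other by more than the groups did. Pcdh18, a partner of the Reelin adaptor Dab1, had 6.87 and 6.81 on the ethanol arrays against 6.94 and 7.12 on the saline arrays, a difference of -0.19 that was not past the limits. After quantile normalization all 5 delta 2 differences were above 0, between 0.01 and 0.08, while all 5 delta 1 differences were below 0. This split by sign depended on the normalization. As deposited, 4 of the 5 delta 2 differences were below 0 too. With the arrays centred on their medians, both Pcdh9 probe sets were above 0, at 0.03 and 0.10, where all probe sets had a median of 0.066. The gap between these subfamilies was not tested.

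The other non-clustered genes gave 1 call in 4 probe sets, beside 20.1% of all probe sets. Pcdh15, the lower part of the tip link in inner ear hair cells, had on its brighter probe set 7.26 and 7.28 on ethanol 2 and ethanol 4, against 7.65 and 7.55 on control 1 and control 3. That difference of -0.33 (standard error 0.09, 1.26-fold lower, adjusted p = 0.177) became -0.15 after quantile normalization and was then not past the limits. The dimmer Pcdh15 probe set, below the 95th percentile of the silent receptors, had 5.36 and 5.27 on the ethanol arrays against 5.58 and 5.26 on the saline arrays, at -0.11, and its groups overlapped. Pcdh20 had 7.46 and 7.49 on the ethanol arrays and 7.38 and 7.50 on the saline arrays, at 0.03. Pcdh12 had 5.34 and 5.25 on the ethanol arrays and 5.53 and 5.44 on the saline arrays, at -0.19, and at -0.02 after normalization. Beside it, the 5 endothelial markers averaged 7.17 and 7.30 on the ethanol arrays and 7.44 and 7.43 on the saline arrays, with 1 of 5, Pecam1, past the limits.

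**Figure D2:**
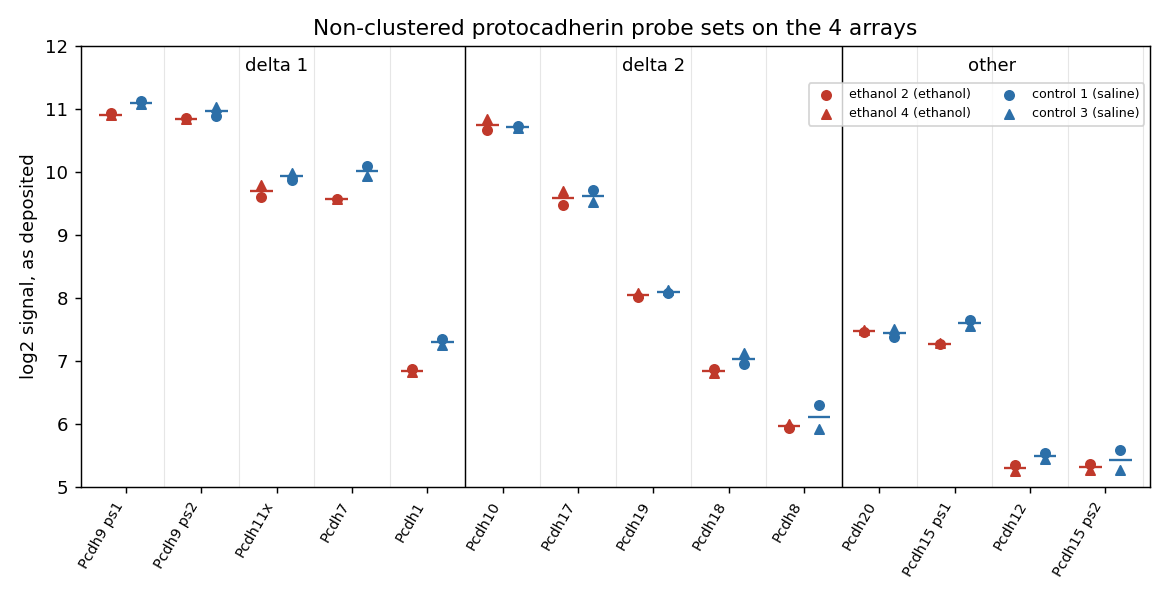
Log2 signal as deposited (vertical axis) of each non-clustered probe set on the ethanol arrays (red) and the saline arrays (blue), with bars at group means (ps1 and ps2 are the brighter and dimmer probe sets of a gene). Pcdh7, Pcdh1 and the brighter Pcdh15 probe set show both ethanol points below both saline points, whereas the points of Pcdh10 and Pcdh17 overlap.

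Among the beta genes, 6 of 22 (27.3%) had lower signals past the limits, beside 17.9% of all probe sets: Pcdhb6, Pcdhb7, Pcdhb11, Pcdhb12, Pcdhb13 and Pcdhb18. Pcdhb7 had log2 signals of 5.94 on ethanol 2 and 6.05 on ethanol 4, against 6.62 on control 1 and 6.51 on control 3. Each group spanned 0.11, and the difference was -0.57 (standard error 0.10, adjusted p = 0.162). After quantile normalization it was -0.37 and still past the limits. Both ethanol values lie under the receptors' 95th percentile of 6.20, so the size of this difference rests on a probe set not clear of background on the ethanol arrays. Pcdhb18 had 7.86 and 7.62 on ethanol 2 and ethanol 4 against 8.25 and 8.28 on control 1 and control 3. Here the ethanol arrays stood 0.23 apart and the saline arrays 0.03 apart. Its difference was -0.52 (standard error 0.11, 1.44-fold lower, adjusted p = 0.171), and -0.37 after normalization, again past the limits.

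The other beta calls were lost after quantile normalization. Pcdhb13 had 5.88 and 5.92 on the ethanol arrays against 6.24 and 6.56 on the saline arrays. The difference was -0.50 (standard error 0.13, adjusted p = 0.175) and -0.31 after normalization, with the saline arrays 0.32 apart. Pcdhb12, at -0.45 (adjusted p = 0.192), had 5.53 and 5.43 on the ethanol arrays against 6.09 and 5.77 on the saline arrays, and again the saline arrays were 0.32 apart. Pcdhb11, at -0.40 (adjusted p = 0.173), had 6.00 and 5.96 on the ethanol arrays against 6.46 and 6.29 on the saline arrays. Pcdhb6, at -0.30 (adjusted p = 0.178), had 7.15 and 7.17 on the ethanol arrays against 7.47 and 7.45 on the saline arrays, with a gap of 0.03 or less within each group. After normalization Pcdhb12, Pcdhb11 and Pcdhb6 were at -0.26, -0.20 and -0.12. In the ANOVA per probe set that the study's methods name, Pcdhb12 and Pcdhb13 also lost their calls on the values as deposited.

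At the upper end of the beta genes were Pcdhb2, Pcdhb17 and Pcdhb3. Pcdhb2 had 6.70 and 6.68 on ethanol 2 and ethanol 4, against 6.17 on control 1 and 6.70 on control 3. Its difference of 0.26 (standard error 0.20, adjusted p = 0.449) rested on the low signal of control 1, while control 3 equalled the ethanol arrays. Pcdhb17 had 7.52 and 7.45 on the ethanol arrays and 7.42 on both saline arrays, at 0.07, and at 0.25 after normalization, short of 1.2-fold. Pcdhb3 had 7.00 on ethanol 2 and 7.42 on ethanol 4, on either side of 7.14 and 7.20 on the saline arrays, at 0.05. None of these 3 was past the limits in either form of the data.

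The brightest beta gene, Pcdhb15, did not separate the groups, with 8.35 and 8.55 on the ethanol arrays and 8.52 and 8.38 on the saline arrays, at 0.0015. Pcdhb9 had 7.98 and 7.91 on the ethanol arrays against 8.05 and 8.08 on the saline arrays, a difference of -0.12. The dimmest, Pcdhb1, had 4.52 and 4.75 on the ethanol arrays against 4.88 and 4.75 on the saline arrays, at -0.18. Pcdhb5 had 5.53 and 5.57 on the ethanol arrays against 5.54 and 5.51 on the saline arrays, at 0.02. Neither of the dim genes was past the limits. Over the 22 beta genes the difference ran from -0.57 to 0.26 with a median of -0.21, and 17 were below 0. After quantile normalization it ran from -0.37 to 0.46 with a median of -0.03, and 13 were below 0, where 51% of all probe sets were. In gene order along chromosome 18, where the cluster lies, the 11 genes Pcdhb1 to Pcdhb11 had a median of -0.12 and the 11 genes Pcdhb12 to Pcdhb22 a median of -0.23, and each stretch held 3 of the 6 calls. After normalization these medians were 0.02 and -0.03. Beta genes are closely related in sequence, and signal shared between their probes was not tested.

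The alpha probe set, which names all of Pcdha1 to Pcdha12 with Pcdhac1 and Pcdhac2, had 6.35 on ethanol 2 and 6.38 on ethanol 4, against 6.68 on control 1 and 6.57 on control 3. Both ethanol arrays were lower, by less than 1.2-fold, at -0.26 (standard error 0.09, adjusted p = 0.208). After quantile normalization the difference was -0.05. Its unadjusted limma p was 0.038 as deposited and 0.526 after normalization.

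**Figure D3:**
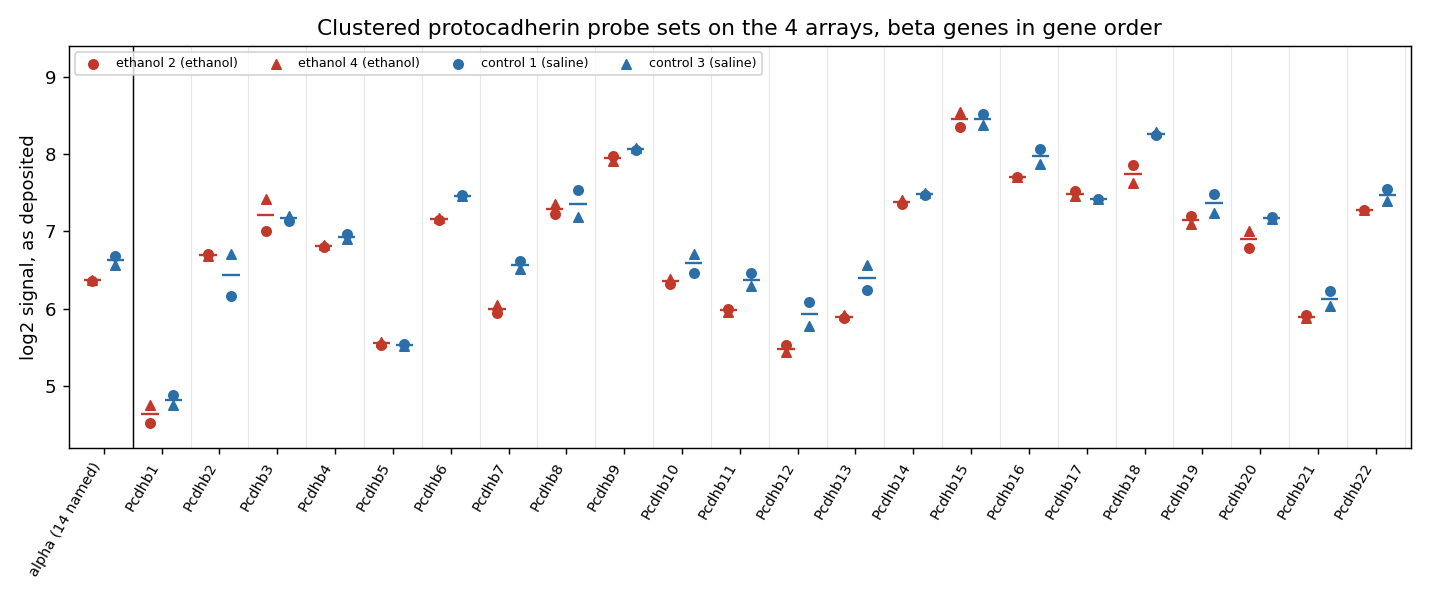
Log2 signal as deposited (vertical axis) of the alpha probe set and the 22 beta genes, in gene order, on the ethanol arrays (red) and the saline arrays (blue), with bars at group means. Pcdhb7 and Pcdhb18 show the most negative differences, -0.57 and -0.52, and for Pcdhb2 the lone low point is control 1.

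Compared as groups, clustered protocadherins had a median difference of -0.21 and non-clustered ones of -0.16, where all probe sets had -0.15. The clustered minus non-clustered gap was -0.06 as deposited and -0.03 after quantile normalization, when the medians were -0.03 and -0.0036. The median signal of clustered probe sets was 6.80 on ethanol 2 and 7.00 on ethanol 4, against 7.14 on control 1 and 7.16 on control 3. For non-clustered probe sets it was 7.73 and 7.78 on the ethanol arrays against 7.86 and 7.84 on the saline arrays. The clustered minus non-clustered level of these array medians varied between pools of 1 group by an SD of 0.08. That SD is not on the measure of the gap, which compares medians of differences, so the gap was not tested against it. Both ethanol arrays lay below both saline arrays in 16 of 23 clustered and 8 of 14 non-clustered probe sets, against 52.7% of all probe sets. After normalization the counts were 8 and 4, against 24.9%. Both ethanol arrays lay above both saline arrays in 1 clustered probe set, Pcdhb17, and 0 non-clustered ones as deposited (7.25% of all), and in 5 and 1 after normalization (24% of all). The difference was larger than both gaps within groups in 14 of 23 clustered and 7 of 14 non-clustered probe sets, against 46.2% of all, and in 9 and 4 after normalization, against 35.4%. Probe sets that name 1 gene in the signal range of the beta genes had a median difference of -0.15, and 17.5% were past the limits in either direction.

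**Figure D4:**
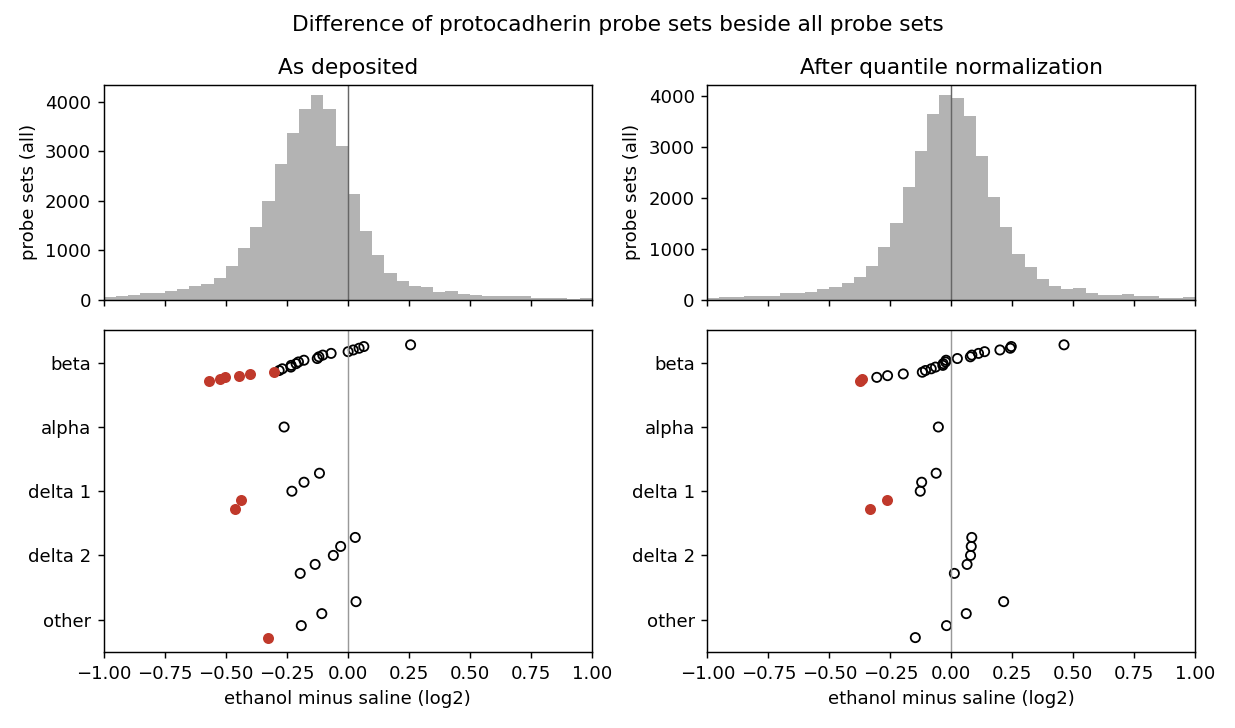
Histograms of the ethanol minus saline difference (log2) of all probe sets (upper panels, ends beyond 1 not shown) above the differences of protocadherin probe sets by class (lower panels), as deposited and after quantile normalization. Filled red points are past the study's limits: 9 as deposited and 4 after normalization, with the delta 2 points centred on -0.06 and 0.08.

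Genes that act on or with protocadherins were given by lists. Of 19 measured regulators of protocadherin promoters and chromatin, 2 had lower signals past the limits, 0 had higher ones and 17 had no call. That share of 10.5% is below the 20.1% of all probe sets, and the median was -0.09. The called genes were Nipbl and Dnmt3a. Nipbl, the cohesin loader, had 8.33 and 8.27 on ethanol 2 and ethanol 4 against 8.78 and 8.69 on control 1 and control 3, at -0.43 (adjusted p = 0.171). Dnmt3a, a de novo DNA methyltransferase, had 8.10 and 8.28 on the ethanol arrays against 8.51 and 8.61 on the saline arrays, at -0.37 (adjusted p = 0.182). After quantile normalization Nipbl was at -0.30, past the limits, and Dnmt3a at -0.24, not past them. Of 26 measured signalling, cleavage and binding partners, 1 had a lower signal past the limits and 25 had no call, a share of 3.85% beside the 20.1% of all probe sets. Their median was -0.13. The called gene was Nlgn2, an adhesion protein of inhibitory synapses, at -0.30 and at -0.20 after normalization.

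Other members of the cadherin superfamily had 62 probe sets with a median of -0.17, and calls were lower for 10 and higher for 1 (17.7% in all). The lower ones included Cdh20, at -0.50, and the giant cadherins Fat1, Fat2 and the dimmer of 2 called Fat3 probe sets, at -0.41, -0.43 and -0.42. These 4 were also past the limits after normalization, at -0.37, -0.28, -0.31 and -0.31. Celsr3, an axon guidance receptor, was at -0.37, Clstn1, a calsyntenin, at -0.28, and Cdh6, the desmosomal genes Dsg1c and Dsc2 and the brighter Fat3 probe set lay between -0.58 and -0.31. Of these, 0 were past the limits after normalization. The neuronal cadherin Cdh9 was past them, and higher, after normalization at 0.31, as was Cdhr1, the one higher gene as deposited. The share of calls in this superfamily stands near the 20.1% of all probe sets. Besides the 2 called, all Fat3 probe sets had no call in either form of the data. Among them was the brightest of all Fat3 probe sets, at -0.07 as deposited. Fat4, at -0.22, had no call either.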

How the data were processed

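Whole-brain RNA of 4 pools of 3 males was hybridized to 4 Affymetrix Mouse Gene 1.0 ST arrays. The authors summarized probes in Partek Genomics Suite (6.6 in the submitters' processing notes, another version in the methods) by RMA adjusted for GC content with quantile normalization, and deposited log2 signals. With 4 arrays, the precision is limited by their number. Symbols come from the platform annotation, and all 36 members naming 1 gene have the same symbol in a RefSeq table of mouse genes (GRCm38.p6). The genome build of the arrays was not given in the sources used here, so no coordinates of probe sets or genes are printed, and those of the promoters are RefSeq's in GRCm38.p6.

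All 35556 probe sets were fitted with limma 3.58.1 in R 4.3.3, two-sided, with 2 residual and 2.57 prior degrees of freedom, and p-values were adjusted by Benjamini-Hochberg over all of them. The limits of 1.2-fold and 0.05, unadjusted, are those of the study's methods. In the lists, the brightest probe set naming a gene alone was used, except for the cadherin superfamily, where all were. The procedure was run on simulated data with independent noise and no offset between arrays. That run does not bear on calls made under the offset seen in the deposited values. Named are all non-clustered, multi-isoform and called members and, in the beta class, the 3 brightest and dimmest and the 3 most extreme differences each way. The members, classes and lists were chosen with earlier results of these data known. The receptor background was added after the data were seen. Alternatives were other groupings, normalizations, filters, tests, limits and pairings, and each array left out. Shares of all probe sets past the limits are given only for the values as deposited and after quantile normalization.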

Additional observations from a re-analysis of the deposited data

How the results depend on the processing

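Pcdhb7, Pcdhb18, Pcdh1 and Pcdh7 stayed past the limits and lower after quantile normalization, without any 1 array, with an intensity trend and under both replicate blocks. Centring the arrays on their medians, which leaves the median of all probe sets at 0.066, kept Pcdhb7 alone of the 9, put Pcdhb17 past the limits and higher, and gave 1 clustered lower, 1 clustered higher and 0 non-clustered lower probe sets. Group medians were then 0.000117 for clustered and 0.0553 for non-clustered genes, and 5 cadherin superfamily probe sets and 1 regulator were past the limits. Quantile normalization gave 2 clustered lower probe sets, 6 in the cadherin superfamily, 1 regulator and 0 partners, and medians of -0.0334 and -0.0036.

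Grouped by the treatment entry, all 5 counts of calls were 0 (clustered lower, non-clustered lower, regulators, partners, cadherin superfamily), the medians were 0.0216 and 0.0146, and 7 of the 9 called members changed sign: the brighter Pcdh15 probe set to 0.0418, Pcdhb7 to 0.0013, Pcdhb11 to 0.10, Pcdhb12 to 0.21, Pcdhb18 to 0.10, Pcdh1 to 0.0689 and Pcdh7 to 0.0772. With a 1.5-fold limit these counts were also 0. Grouping by the treatment entry mixes arrays titled ethanol and control within each group. Members called by title could hardly keep their calls there, so their loss does not show which label is right. The methods' ANOVA gave 4 clustered lower calls, losing Pcdhb12 and Pcdhb13, and 3 non-clustered ones, with 5 calls in the superfamily, 1 regulator and 0 partners.

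With each array left out in turn, clustered lower calls ran from 3 to 6 (3 without ethanol 2 and without ethanol 4, 4 without control 1), clustered higher calls from 0 to 1, non-clustered lower calls from 2 to 3, regulators from 2 to 3, partners from 0 (without ethanol 2, ethanol 4 or control 1) to 3 (without control 3) and superfamily calls from 4 (without ethanol 2; 5 without control 1) to 13. Pcdhb6 lost its call without any 1 array, Pcdhb12 and Pcdh15 without ethanol 2, ethanol 4 or control 1, Pcdhb13 without ethanol 2 or ethanol 4 and Pcdhb11 without ethanol 4 or control 1. Calls gained were Pcdhb20 (without ethanol 4), Pcdhb10 (without control 1), Pcdhb16 and, as the 1 higher call, Pcdhb2 (both without control 3). The median of clustered genes ran from -0.28 to -0.13, that of non-clustered genes from -0.19 to -0.14, and the gap from -0.09 to 0.02, turning positive without control 1. The lone array of a group was assumed to vary like the other group. Titles share no replicate number, and the labels do not say which pools hold littermates, so a replicate block was fitted for either pairing, and each gave 6 clustered and 3 non-clustered lower calls, all 9 of them those without the block. The 2 arrays on which all labels agree, ethanol 2 and control 3, gave medians of -0.18 and -0.13.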

Other observations

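The RefSeq table lists 2 further genes under an older protocadherin name, which the symbol rule leaves out. Cdhr1, formerly Pcdh21, is known from photoreceptors and from the mitral cells of the olfactory bulb, and ran against the protocadherins with calls. Its log2 signals were 6.99 on ethanol 2 and 7.05 on ethanol 4, against 6.53 on control 1 and 6.75 on control 3. The difference was 0.38 (standard error 0.11, adjusted p = 0.184 in limma), and 0.58 after quantile normalization, past the study's limits and higher in both forms. Beside it, the 3 olfactory bulb markers averaged 6.71 and 6.90 on the ethanol arrays and 6.76 and 7.00 on the saline arrays, with differences in both directions. Eomes was at -0.42, past the limits, and at -0.22 after quantile normalization. Doc2g was at 0.24, and at 0.43 after normalization with both ethanol arrays higher, and Tbx21 was at -0.07 and 0.14, neither of them past the limits. The 2 measured retina markers averaged 4.73 and 4.87 on the ethanol arrays and 5.02 and 4.84 on the saline arrays, within the range of silent receptors. Their part in the Cdhr1 result was not tested. Cdhr2, formerly Pcdh24, had 4.95 and 4.89 on the ethanol arrays and 5.08 on both saline arrays, at -0.16, and was not past the limits.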
